A study of Caenorhabditis elegans with 46 samples.

Results

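The genes described here carry the class names msp, ssp, ssq, nspd, nspc and nspe, and were taken as every probe set whose listed gene symbols all belong to these classes. This rule found 74 of the 22625 probe sets on the array: 31 for msp, 10 for ssp, 9 for ssq, 10 for nspd, 9 for nspc and 5 for nspe. They list 76 genes, many of them near copies of each other. Expression was measured in RNA of whole Caenorhabditis elegans worms on 46 Affymetrix arrays. A time course of the wild-type strain N2 had 2 arrays per group: worms fasted for 3, 6, 9, 12, 18, 24, 36 and 48 h from day 2 of adulthood, and fed worms at 0, 24 and 48 h, adults of day 2, 3 and 4. A mutant set of day 4 adults had 3 arrays per group: kgb-1, jun-1 and daf-16 mutants and N2, each fasted and fed. The gene kgb-1 encodes a stress-activated kinase related to JNK, jun-1 a relative of the mammalian transcription factor Jun, and daf-16 the forkhead factor that acts under insulin signalling. The labels give neither the lesion of a mutant nor the fasting time of the mutant set, and they do not say whether worms carried males or how many worms made a sample.

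Major sperm proteins, encoded by the msp genes, assemble into the filaments on which the crawling nematode sperm moves, and they are released as a signal that starts oocyte maturation and ovulation. A C. elegans hermaphrodite makes its sperm in late larval life, stores it and then turns its germline to oocytes, so that transcripts of sperm formation belong mainly to larvae of that stage and to males. The ssp and ssq genes are named as sperm-specific families of classes P and Q, and nspd, nspc and nspe are groups D, C and E of the nematode-specific peptide family. No sequences are shown, because no sequence table was used here.

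Copies of one gene class share sequence, and 59 of the 74 probe sets carry the suffix x_at, which marks probes that can bind several transcripts. Several symbols were listed for 23 probe sets, as many as 9 for some of the nspc group, and 26 genes were shared by more than 1 member probe set. Values of single members are therefore uncertain as to which copy they report, and members are not independent of each other. In the reference gene table of assembly WBcel235, 36 of the 76 genes had another member as a direct protein-coding neighbour, among them 14 of 15 nspc genes, 13 of 30 msp genes and none of 10 nspd genes. In 22 members the mean intensity over all arrays was under 100, where the size of a log2 difference depends on the offset of 16 that was added before the logarithm. Other members were as low in the time course, where the median intensity over the nspd class was 35.1 to 73.5.

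Array medians lay between 60.1 and 85.4, and the number of arrays limits the precision of every comparison. The jun-1 probe set 188946_at had at most 27.3 intensity units in the 6 jun-1 arrays. In the 6 N2 arrays of the same set it had 484 to 803. Another jun-1 probe set, 180818_at, did not separate them, with 104 to 195 units in jun-1 arrays, against 117 to 232 in N2. The daf-16 probe set 175678_at had 126 to 215 units in the 6 daf-16 arrays, against 235 to 430 in N2. The kgb-1 probe set had 157 to 222 units in the 6 kgb-1 arrays, against 153 to 222 in N2, so it does not check that label. The design text speaks of independent experiments, 2 for the time course and 3 for the mutants, without saying what was repeated. The p-values measure only the spread between these samples. All comparisons with fed worms at 0 h share the same 2 arrays of that group.

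Before any fasted or mutant group is compared, the members divided the mutant set by replicate number. The median intensity over the 31 msp probe sets was 267 to 5031 in the 8 arrays of replicate 2 and 162 to 1651 in those of replicate 3, against 87.8 to 273 in those of replicate 1. Replicate 2 was highest in 246 of the 248 combinations of an msp probe set and a group. Replicate 2 was also highest in 75 of 80 combinations for nspd, in 58 of 80 for ssp and in 44 of 72 for ssq, but in only 26 of 72 for nspc and 10 of 40 for nspe. In the time course, by comparison, the msp median stayed between 169 and 491 over all 22 arrays.

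**Figure D1:**
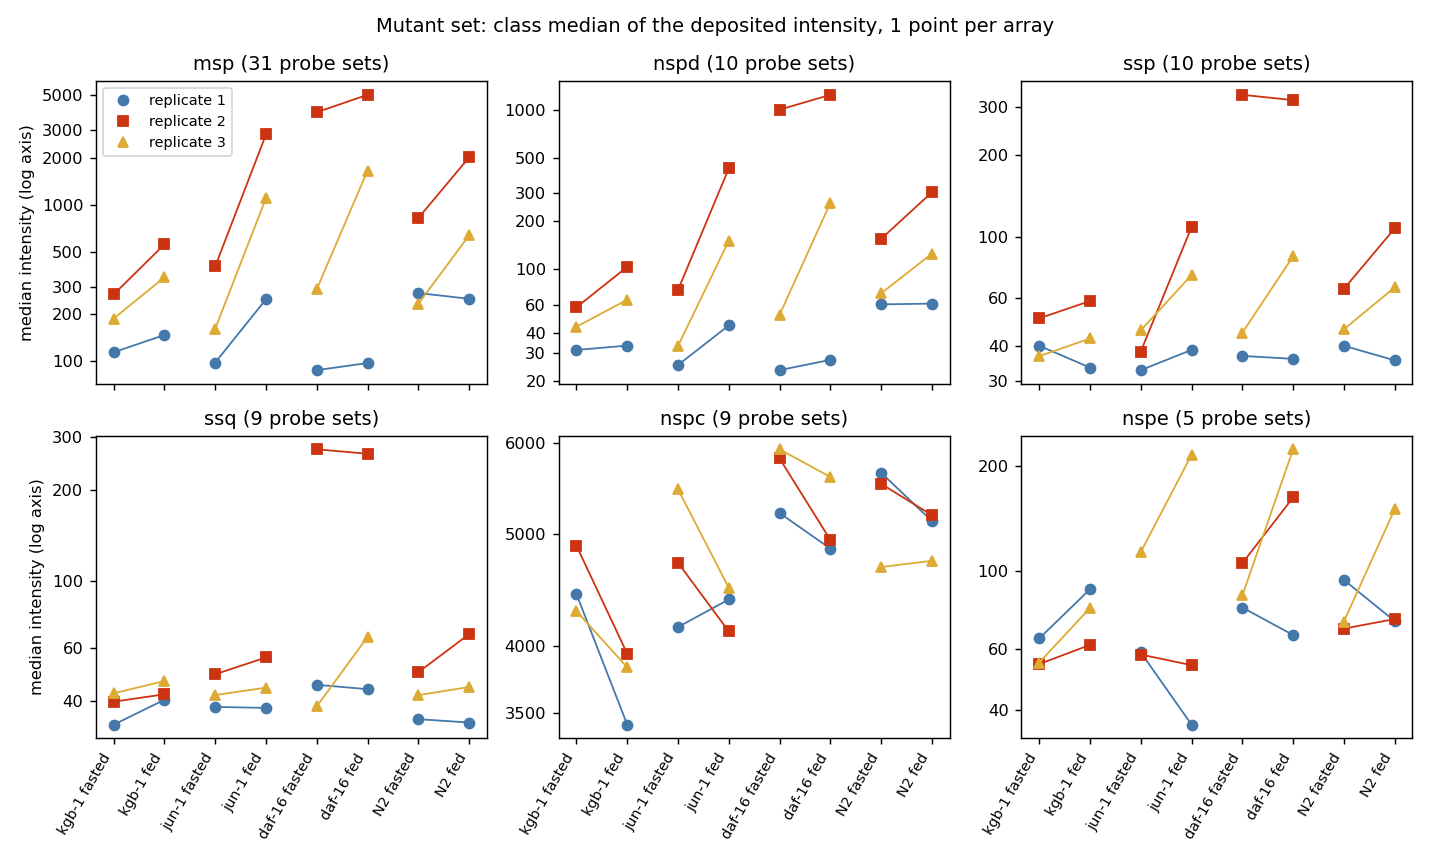
Median deposited intensity over the probe sets of each class (log axis, 1 point per array) in the 24 arrays of the mutant set, by genotype with fasted left of fed; colours and symbols mark the replicate number, and lines join the fasted and fed array of 1 number. The replicate 2 arrays lie above the replicate 1 arrays in every group for msp and nspd, and the msp points span 87.8 to 5031.

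The probe set 172893_x_at, which lists msp-81 and msp-79 and has the highest mean of the msp class, had 134.8, 6074 and 408 units in fasted daf-16 replicates 1, 2 and 3, against 155, 5527 and 2166 units in fed daf-16 worms. It had 348, 1126 and 341 units in fasted N2 worms, against 374, 2959 and 1014 units in fed N2 worms. Replicate 2 was the highest array in all 4 of these groups, and the fasted and fed arrays overlapped in both genotypes. The msp probe set with the lowest mean, 189621_at for msp-32, showed the same order in fed daf-16 worms, with 42.1, 266 and 72.3 units. Among nspd probe sets, 172546_x_at, which lists nspd-5 and nspd-4, had 20.7, 1707 and 55.7 units in fasted daf-16 worms, against 22.7, 1923 and 383 units in fed ones, so that 1 array of each group stood far above the other two.

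The remaining members with the lowest mean of their class kept to the low end of the scale. The probe set for ssp-32 and ssp-36 had 24.1 to 32.3 units in the time course, ssq-4 had 19.8 to 29.2 and nspd-9 had 19.1 to 26.96. Each had its highest array of all 46 in the mutant set, in fasted daf-16 replicate 2 for ssp-32 with ssp-36 and for nspd-9, and in fed jun-1 replicate 3 for ssq-4. The nspc probe sets lay far above this range, with 3203 to 6347 units in the time course for the one of highest mean (172324_x_at, nspc-3 and 8 others) and 1096 to 3012 for the one of lowest mean (172715_x_at, nspc-3 and 7 others), so that the offset hardly touched them.

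A fit with both group and replicate number, added after these values were seen, measured the size of this division over all 8 groups. Between replicate 2 and replicate 1, 57 of 74 members were higher and none was lower at an adjusted p under 0.05, by limma with Benjamini-Hochberg adjustment over all 22548 probe sets tested. Of all probe sets tested, 17.7% were higher and 21.4% lower, with a median log2 difference of -0.01. All 31 msp probe sets were higher, with a median log2 difference of 2.71 and a range of 0.70 to 3.08. The largest was msp-36, at 3.08 ± 0.39 (SE), and 30 of the 50 probe sets with the largest rise on the whole array were msp probe sets. Higher too were 9 of 10 nspd probe sets, with a median of 2.35, 9 of 10 ssp probe sets, with a median of 0.92, and 5 of 9 ssq probe sets, with a median of 0.82. In the nspc class 2 of 9 were higher, with a median of 0.02, and in the nspe class 1 of 5, with a median of 0.24. The fit, like the block used below, takes 1 shift for all groups, but its size differed by group. The median msp ratio of replicate 2 over replicate 1 was 39.1 in fed and 40.2 in fasted daf-16 worms. It was 8.61 in fed and 3.37 in fasted jun-1 worms, 7.02 and 3.01 in N2, and 3.08 and 2.17 in kgb-1.

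Between replicate 3 and replicate 1, 37 members were higher and none lower, 27 of them msp, with a median msp difference of 1.32, where 16.8% of all probe sets were higher and 19.5% lower. Between replicate 2 and replicate 3, 15 members were higher and none lower, 14 of them msp, where 1.03% of all probe sets were higher and 0.31% lower. This last count depended on the settings: it was 35 with the values as deposited and 31 without the 6 daf-16 arrays, but 9 with an offset of 50 and 1 without the intensity trend. As to the label of sperm genes, the medians of the msp, nspd, ssp and ssq classes all stood apart in replicate 2 against replicate 1. In that contrast nspc and nspe, at 0.02 and 0.24, stood close to the median of all probe sets. Between replicate 3 and replicate 1, however, 3 of 5 nspe probe sets were higher, with a median of 0.45 and a largest difference of 1.39. In the nspc class 1 of 9 was higher there, with a median of 0.13.

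**Figure D2:**
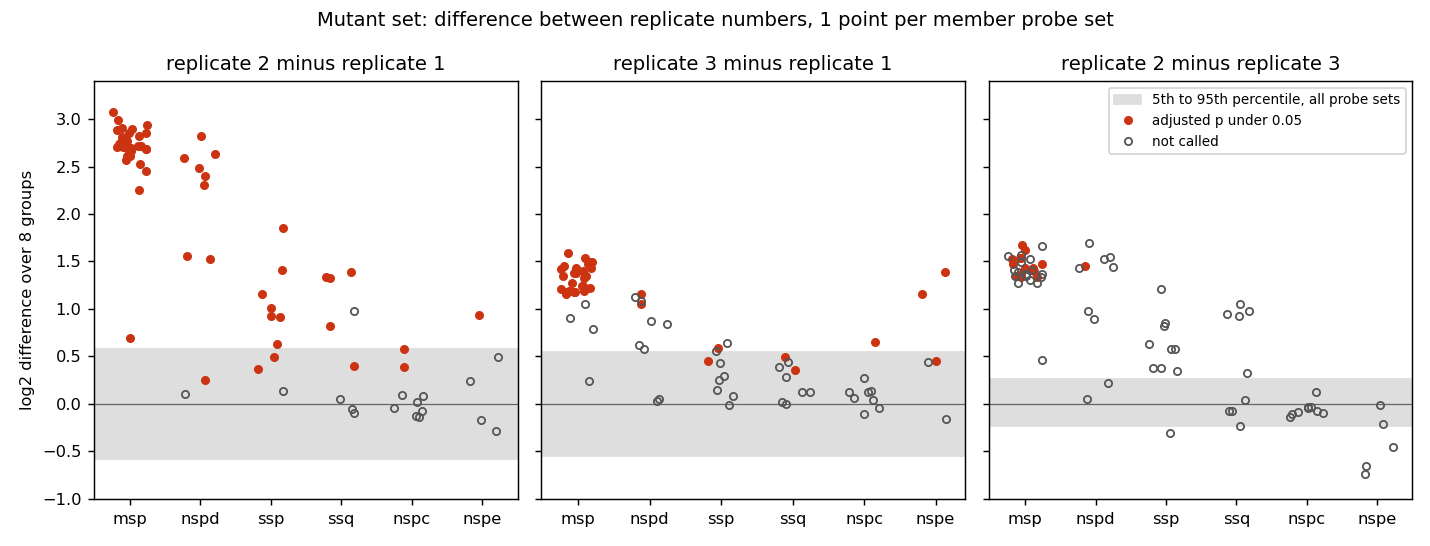
Log2 differences between the replicate numbers of the mutant set, over 8 groups, for each of the 74 member probe sets by class; filled points passed an adjusted p under 0.05 and the grey band spans the 5th to 95th percentile of all probe sets tested. All 31 msp probe sets were higher in replicate 2 than in replicate 1, with a median of 2.71, while the nspc median was 0.02.

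Genes of sperm formation and function outside these classes moved with the same arrays, in part. Between replicate 2 and replicate 1, 17.7% of all probe sets were higher and 21.4% lower. Of the 42 sperm genes listed, 35 were measured, and 14 were higher and 6 lower, with a median log2 difference of 0.17. The highest were msd-4, at 2.53 ± 0.39 (SE), and msd-2, at 2.46 ± 0.40, both genes for proteins with a major sperm protein domain. They were followed by gsp-3 at 1.86 and gsp-4 at 1.51, which encode sperm protein phosphatases, and by fog-3 at 1.35, which directs germ cells to the sperm fate. Lower were elt-1, at -0.65, a GATA factor of the epidermis that also acts on sperm genes, and spe-39, at -0.50, which acts in vesicle traffic, followed by zipt-7.1 at -0.43, cpb-1 at -0.38 and spe-5 at -0.24. The gsp-3 probe set had 28.9, 627 and 88.4 units in fed daf-16 replicates 1, 2 and 3, which repeats the order of the msp probe sets in the same arrays.

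**Figure D3:**
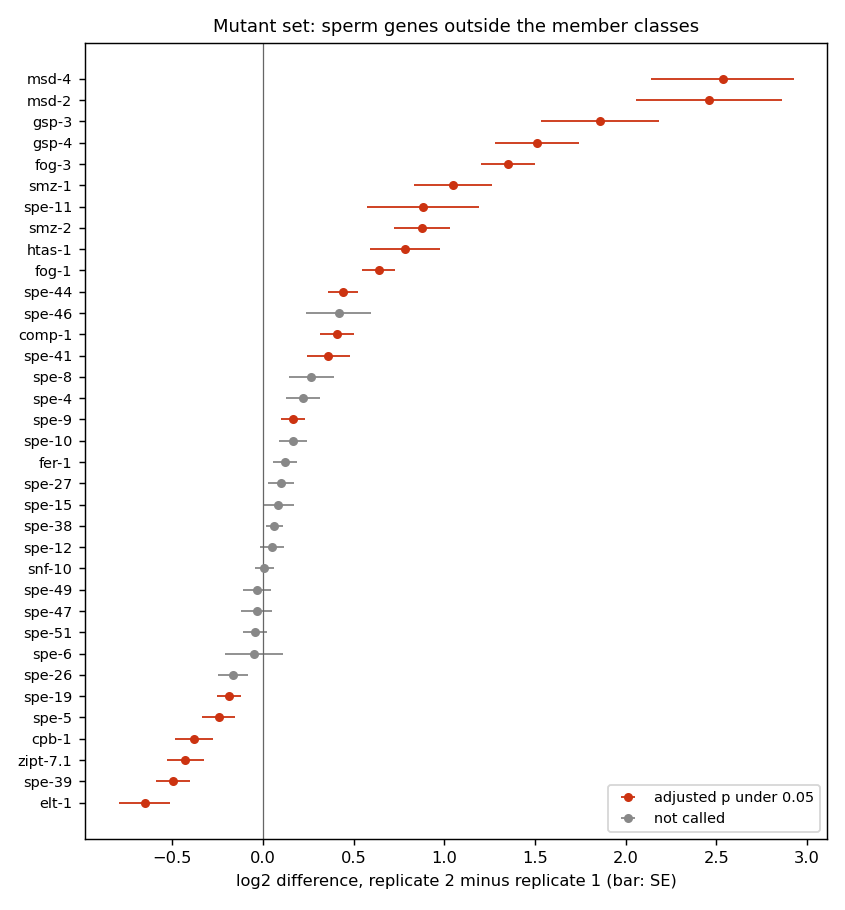
Log2 difference between replicate 2 and replicate 1 of the mutant set, with its standard error, for the 35 measured sperm genes outside the member classes. 14 genes were higher, with msd-4 at 2.53 the highest, and 6 were lower, with elt-1 at -0.65 the lowest.

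Some markers of other cells and stages moved too, where 17.7% of all probe sets were higher and 21.4% lower. Of 20 oocyte and eggshell genes, 15 were lower in replicate 2 than in replicate 1 and none was higher, among them the eggshell chitin synthase chs-1, at -0.93, oma-1 at -0.76 and egg-2 at -0.62. Their summed intensity was 65666 to 94656 in replicate 2, against 80339 to 103186 in replicate 1. Of 10 measured genes of early embryos 6 were lower and none higher, and of 13 larval moulting genes 7 were lower and none higher, with a sum of 1109 to 1417 in replicate 2, against 1514 to 2297 in replicate 1. Of 12 male somatic genes 2 were higher, cwp-5 at 0.40 and dmd-3 at 0.34, and none was lower. The number of male genes called higher was thus near the share of all probe sets. The summed male list lay at 715 to 977 units in replicate 2, against 584 to 756 in replicate 1. Deposited values went no lower than 16, so no marker could be listed at 0. Of 8 genes of the somatic gonad 3 were higher and 2 lower. The part of these cells and stages, and of the replicate experiment itself, in the msp difference was not tested.

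Within every pair of arrays of 1 replicate number, the mean over the msp probe sets was lower in fasted than in fed worms of the mutant set. The mean log2 difference over the class lay between -2.44 and -0.08 in these 12 pairs, with a median of -0.95. The smallest difference, that of N2 replicate 1, was -0.0012 with the values as deposited. The nspd class was lower in 12 of 12 pairs as well, ssq in 11, ssp in 10 and nspe in 10, whereas nspc was lower in 1 of 12. In jun-1 worms the msp median was 98.3, 404 and 162 units in fasted replicates 1, 2 and 3, against 249, 2810 and 1103 units in fed ones. In daf-16 worms it was 87.8, 3896 and 289 units in fasted replicates, against 97.5, 5031 and 1651 in fed ones. In kgb-1 worms it was 114, 267 and 188 units in fasted replicates, against 147, 558 and 344 in fed ones. In N2 worms it was 273, 822 and 233 units in fasted replicates, against 251, 2006 and 637 in fed ones, where the replicate 1 medians run the other way. The medians of fasted and fed arrays overlapped in all 4 genotypes, and the lowest pair differences, -2.44 and -2.41, were those of jun-1 replicates 2 and 3. In whole-worm RNA, fewer cells of a type and less RNA per cell cannot be told apart.

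Without regard to replicate number, no msp, nspd, ssp, ssq or nspc probe set passed an adjusted p under 0.05 in any genotype. At an unadjusted p under 0.05, none of the 31 msp probe sets passed in any of the 4 genotypes. The median msp log2 difference of fasted minus fed worms was -0.62 in kgb-1, -2.02 in jun-1, -0.81 in daf-16 and -0.96 in N2, where the medians of all probe sets were 0.01, 0.04, 0.02 and -0.01. The single called member was nspe-4, which rose in jun-1, daf-16 and N2 worms, where 0.82%, 2.25% and 3.4% of all probe sets rose and 2.13%, 2.43% and 2.17% fell. No member was called in kgb-1, where 1% of all probe sets were called in either direction. There the smallest p belonged to 2 nspc probe sets, 194245_x_at (nspc-13 and 5 others) at 0.28 ± 0.13 (SE; adjusted p 0.768) and 172334_x_at (nspc-3 and 8 others) at 0.23 ± 0.10 (adjusted p 0.8).

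With the replicate number as a block, 22 members fell in fasted jun-1 worms, 21 of 31 msp probe sets and nspd-7, where 4.22% of all probe sets fell, and nspe-4 rose, where 2.97% did. The largest fall was that of msp-152, at -2.37 ± 0.64 (SE in the blocked fit; adjusted p 0.026, against 0.415 without the block), followed by msp-40 at -2.28 and, at -2.27, a probe set for msp-56 and msp-10. msp-152 had 81.8, 259 and 73.8 units in fasted jun-1 worms, against 213, 1832 and 694 in fed ones, lower in each of the 3 pairs. nspd-7 had 16.2, 33.8 and 24.2 units in fasted jun-1 worms, against 44.2, 209 and 154 in fed ones, and these groups did not overlap. Its blocked log2 difference was -1.88 ± 0.48 (SE; adjusted p 0.016). With replicates 1 and 3 alone and the block, a choice made after seeing the data, 3 msp probe sets and 1 nspd probe set fell, where 2.9% of all probe sets did, and nspe-4 rose, where 1.05% did.

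In N2, kgb-1 and daf-16 worms the block called no msp probe set, and their medians were the same as above. The smallest blocked adjusted p of an msp probe set was 0.213 in N2, 0.891 in kgb-1 and 0.356 in daf-16 worms. The block added 1 nspc probe set to the members that rose in N2 and in daf-16, for 2 of 74 members each, beside 7.41% and 4.91% of all probe sets. With replicates 1 and 3 alone and the block, 1 nspd probe set fell in daf-16, where 3.35% of all probe sets fell, and no member was called in N2 or kgb-1.

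The fasting response of no member differed from that of N2 by the interaction test, with or without the block, also at each omission of 1 array without it. Interactions were called for 0.031% of all probe sets in kgb-1, 0.177% in jun-1 and 0.111% in daf-16. The median msp interaction was 0.35 for kgb-1, -1.07 for jun-1 and 0.14 for daf-16, and at an unadjusted p under 0.05 the sole member was nspe-4 in kgb-1, at -0.45 ± 0.19 (SE; adjusted p 1). The fall of msp probe sets in jun-1 worms is therefore not shown to differ from the values in N2. These 3 comparisons share the 6 N2 arrays.

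Among fed and fasted worms of different genotype, the class medians of the msp arrays overlapped in every comparison. The median msp log2 difference from N2 was -1.14 in fed kgb-1 worms, 0.49 in fed jun-1 worms and 0.59 in fed daf-16 worms. In fasted worms it was -0.74 for kgb-1, -0.57 for jun-1 and 0.70 for daf-16. No msp probe set was called in any of these 6 comparisons, with or without the block, and no member of any class in fed or fasted daf-16 worms, where 0.435% and 2.1% of all probe sets were called. With replicates 1 and 3 alone, the daf-16 medians were 0.21 for fed and -0.16 for fasted worms, so that the sign in fasted daf-16 worms rested on the replicate 2 arrays.

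The members that did differ by genotype belonged to other classes. ssp-37, the ssp probe set with the highest mean, had 158.5, 130 and 342 units in fasted jun-1 worms, against 626, 418 and 523 in fasted N2 worms. All jun-1 arrays lay under all N2 arrays, with a log2 difference of -1.18 ± 0.29 (SE; adjusted p 0.023 by limma, 0.00279 with the block), the only member called among 2.91% of all probe sets that were lower. The count of called members became 0 without fasted N2 replicate 1 or 3 or without fasted jun-1 replicate 1 or 2, and 4 without fasted jun-1 replicate 3. In kgb-1 worms ssp-37 had 490, 456 and 529 fasted units, and in daf-16 worms 620, 557 and 574.

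With the block, 4 nspc probe sets joined ssp-37 in fasted jun-1 worms, beside 5.54% of all probe sets. These included 172268_x_at, which lists nspc-19, nspc-16 and nspc-20, at -0.67 ± 0.16 (SE; blocked adjusted p 0.0126). In fasted kgb-1 worms, 3 nspc probe sets and nspe-1 were lower than in N2 with the block, where 2.79% of all probe sets were lower, and no member was called without it, where 1.39% were called in either direction. In fed kgb-1 worms the block called 1 nspc probe set, nspe-1 and nspe-3, beside 3.79% of all probe sets, and no member was called without it, beside 1.9% called in either direction. In fed jun-1 worms it called nspe-1, beside 2.05%, and no member was called without it, beside 1.36% in either direction. Without fed jun-1 replicate 3, 2 members were called in the unblocked fit.

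nspe-1 had 200, 242 and 197 units in fed kgb-1 worms, against 447, 772 and 908 units in fed N2 worms, with no overlap and a log2 difference of -1.69 ± 0.39 (SE in the blocked fit; blocked adjusted p 0.0105, against 0.269 without it). In fasted kgb-1 worms it had 97.0, 170.5 and 136 units, against 354, 464 and 579 in fasted N2 worms, and the difference was -1.65 ± 0.39. In fed jun-1 worms it had 68.0, 119.5 and 676 units, of which the third lay within the range of N2.

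In both designs nspe-4 was higher in fasted worms. Its probe set, 172632_x_at, had 61.7, 68.4 and 71.7 units in fasted mutant-set N2 worms, against 32.3, 28.8 and 42.6 units in fed ones. It had 71.1, 57.7 and 70.4 units in fasted jun-1 worms, against 36.3, 27.8 and 22.6 in fed ones. It had 63.5, 71.1 and 45.6 units in fasted daf-16 worms, against 37.8, 27.9 and 31.7 in fed ones. Fasted and fed arrays did not overlap in any of these genotypes, and limma gave log2 differences of 0.63 ± 0.13 (SE; adjusted p 0.00563) in N2, 0.87 ± 0.13 (adjusted p 0.00028) in jun-1 and 0.57 ± 0.13 (adjusted p 0.0125) in daf-16. In kgb-1 worms the values were 64.1, 54.1 and 48.3 units fasted, against 46.7, 46.6 and 43.5 fed, and the difference of 0.17 ± 0.13 had an adjusted p of 1. No member was called in N2 without fed N2 replicate 2, or in daf-16 without fed daf-16 replicate 2, fed daf-16 replicate 3 or fasted daf-16 replicate 1. Counts of called members were 2 in N2 without fasted N2 replicate 3 and 2 in jun-1 without fed jun-1 replicate 1.

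In the time course, nspe-4 had 125 and 126 units after 48 h of fasting, against 43.9 and 43.4 in fed worms of the same age. After 24 h it had 83.2 and 78.6 units, against 37.4 and 36.2 in fed worms, and the log2 differences were 0.77 ± 0.12 after 24 h and 0.99 ± 0.12 after 48 h (SE; adjusted p 0.000132 and 1.37e-05 by limma). Against fed worms at 0 h, with 39.1 and 36.2 units, the differences were 0.47, 0.53, 0.66 and 0.93 after 9, 12, 18 and 36 h, each called, while 3 and 6 h gave 0.08 and 0.27 and were not called. In fed worms the probe set differed from 0 h by -0.07 and 0.14 at 24 and 48 h, neither called.

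The other nspe probe sets had different courses. nspe-7 had 78.9 and 88.1 units after 24 h of fasting, against 37.6 and 38.1 in fed worms, and 80.3 and 120 after 48 h, against 41.7 and 47.8 in fed worms. These groups did not overlap and the differences, 0.79 ± 0.22 and 0.68 ± 0.22 (SE), were called. nspe-1 had 37.6 and 48.4 units after 3 h and 37.8 and 54.4 after 6 h of fasting, against 145 and 103 in fed worms at 0 h. It was thus lower in both early groups, with log2 differences of -1.38 ± 0.29 and -1.30 ± 0.29 (SE; adjusted p 0.0253 and 0.0225), and was the only member called there, where 0.674% and 1.1% of all probe sets fell. Without fed 0 h replicate 1, without either fasted array of the time in question, or with an offset of 50, no member was called at 3 or 6 h.

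By 36 h nspe-1 had turned, with 272 and 447 units in fasted worms, higher by 1.17 ± 0.29 than at 0 h in fed worms. Fed worms moved too: nspe-1 had 326 and 329 units in fed worms at 48 h, with a difference from 0 h of 1.13 ± 0.29 that was not called (adjusted p 0.062). At 24 and 48 h the fasted and fed worms of the same age differed by -0.08 and 0.12, neither called. nspe-3 followed nspe-1, with 136 and 143 units in fed worms at 48 h and 113 and 89.6 at 24 h, against 53.3 and 39.4 at 0 h. It rose in fed worms by 0.98 ± 0.19 after 24 h and 1.32 ± 0.19 after 48 h (SE; adjusted p 0.025 and 0.000905), the only member called, where 0.279% and 1.17% of all probe sets rose. The call at 24 h was lost without fed 0 h replicate 2 or either fed 24 h array, and without fed 0 h replicate 2 the count at 48 h was 4. nspe-5, which has the lowest mean of the class, was called at none of the 8 fasting times, with 26.9 to 55.0 units over the time course.

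**Figure D4:**
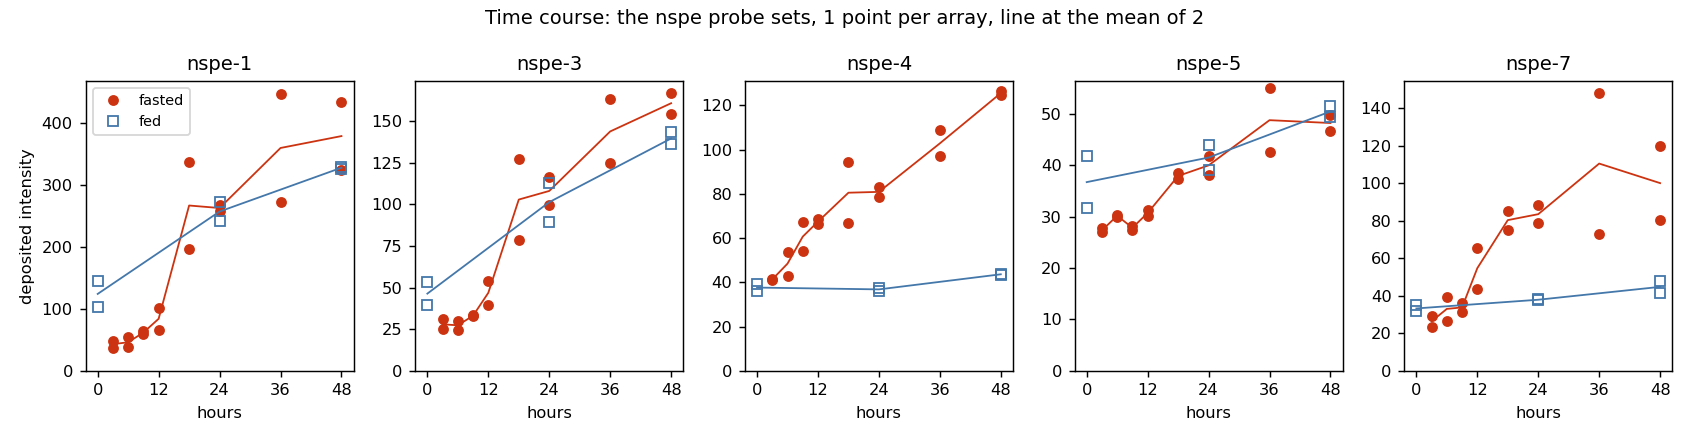
Deposited intensity of the 5 nspe probe sets in the N2 time course, by hours, with 1 point per array and lines at the mean of 2 arrays for fasted (filled) and fed (open) worms. nspe-4 and nspe-7 lie higher in fasted than in same-age fed worms at 24 and 48 h. nspe-1 and nspe-3 lie lower in early fasting and then meet the rising fed values. The early fall was called for nspe-1 at 3, 6 and 9 h, and for nspe-3 at no time.

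The nspc probe sets rose together in fasting N2 worms. Against fed worms at 0 h, 8 of 9 rose at 9 h, with a median log2 difference of 0.63, and all 9 at 12, 18 and 36 h, with medians of 0.77, 0.75 and 0.86. Of all probe sets 6.4% rose at 9 h, 9.96% at 12 h, 17.8% at 18 h and 19.8% at 36 h. Medians of all probe sets at these times lay between -0.04 and -0.03. At 3 and 6 h none was called, with medians of 0.09 and 0.25, also at an unadjusted p under 0.05. Against fed worms of the same age, 1 of 9 rose at 24 h, with a median of 0.31, and 8 of 9 at 48 h, with a median of 0.45, where 16.5% and 16% of all probe sets rose. Since the 9 probe sets share most of their 15 genes, they are not separate observations. The comparisons from 9 to 36 h share the 2 fed arrays of 0 h, so they are not separate observations either. Fed 0 h replicate 1 was the lowest of all 46 arrays for 172324_x_at and 172715_x_at, the nspc probe sets of highest and lowest mean.

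The probe set for nspc-19, nspc-16 and nspc-20 (172268_x_at) had 4829 and 5139 units after 48 h of fasting, against 2925 and 2936 in fed worms of the same age, with a difference of 0.75 ± 0.19 (SE; adjusted p 0.00642). After 24 h it had 4911 and 3904 units, against 3030 and 3068 in fed worms, with a difference of 0.57 ± 0.19. Fasted arrays lay above fed arrays at both times. The probe set for nspc-6, nspc-2 and nspc-5 (194223_x_at) had 6507 and 5567 units at 48 h of fasting, against 4481 and 3885 in fed worms, with a difference of 0.54 ± 0.20 (adjusted p 0.0457). In fed worms it had 2556 and 2924 units at 0 h, so its level rose with age as well. Over the class, the fed median difference from 0 h was 0.41 and 0.48 at 24 and 48 h, with 8 and 7 of 9 at an unadjusted p under 0.05 and none called. In the mutant set the nspc class was higher in fasted worms in 11 of 12 pairs, with a median difference of 0.16 and no call in the unblocked fit.

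**Figure D5:**
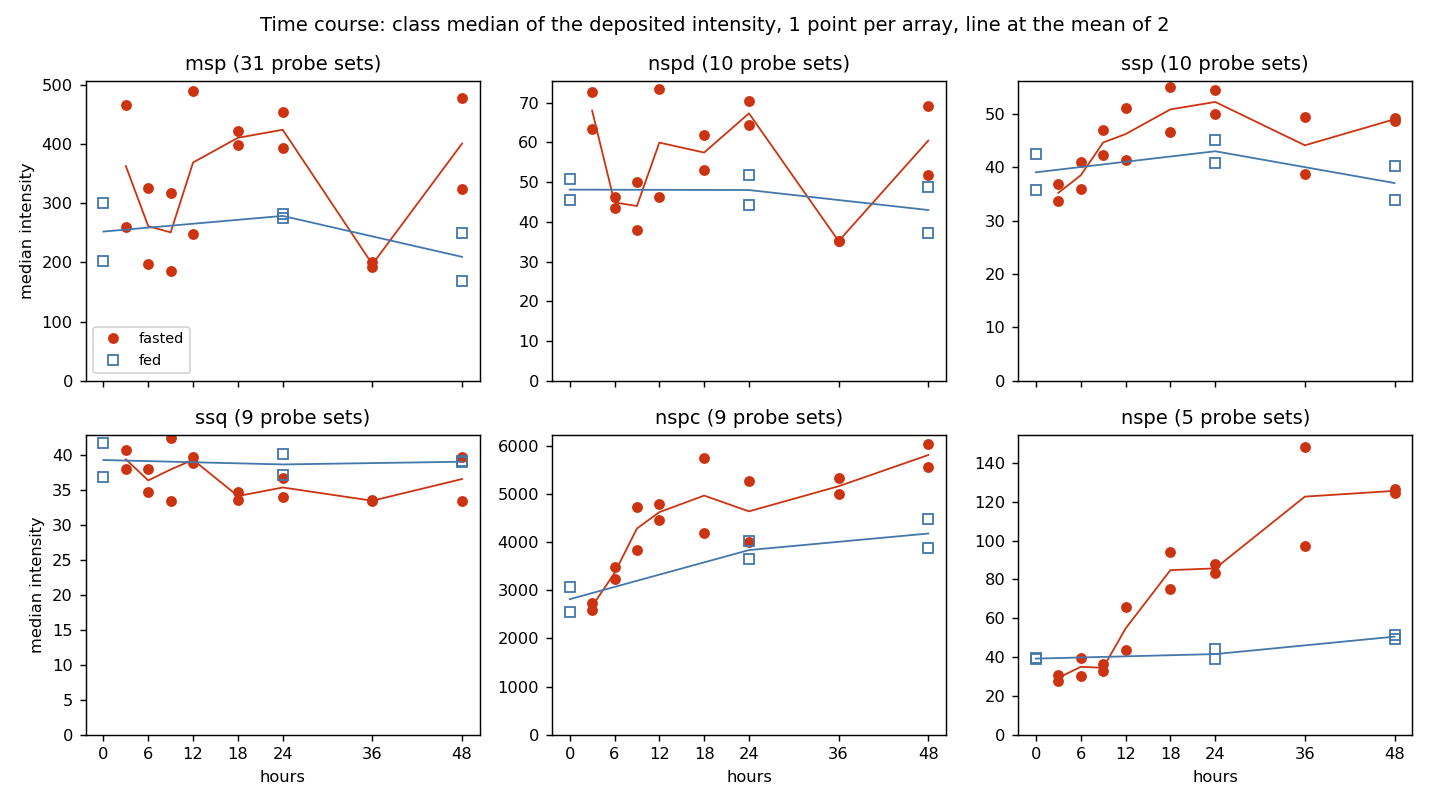
Median deposited intensity over the probe sets of each class in the N2 time course, by hours, with 1 point per array and lines at the mean of 2 arrays for fasted (filled) and fed (open) worms. The msp medians of the 2 arrays of a time often lie as far apart as fasted and fed worms, while nspc and nspe medians lie higher in fasted than in fed worms at 48 h. Taken 1 by 1, 3 of the 5 nspe probe sets were higher at 48 h and 2 lower, with a median log2 difference of 0.12. Of these 2 were called, both higher.

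Counted over all classes, 9 members rose and 2 fell at 9 h, beside 6.4% and 3.25% of all probe sets, and 10 rose and 1 fell at 12 h, beside 9.96% and 6.17%. At 18 h 14 rose and 3 fell, beside 17.8% and 18.8%, and at 36 h 14 rose and 18 fell, beside 19.8% and 20.5%. Against fed worms of the same age, 4 rose and 5 fell at 24 h, beside 16.5% and 15.7%, and 11 rose and 3 fell at 48 h, beside 16% and 14.1%. Taken over both directions, the shares of members called at 18, 24 and 48 h were thus under those of all probe sets, and at 36 h, with 32 of 74, close to it. With the values as deposited, 17 members rose and 1 fell at 18 h, beside 22.4% and 12.5% of all probe sets. The 24 h calls then split into 4 higher and 3 lower, beside 19.1% and 12.3%, and the 36 h calls into 16 higher and 2 lower, beside 24.4% and 14.8%. For 48 h the split was 22 higher and 2 lower, beside 22.3% and 9.64%.

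These counts changed when 1 array was left out. Each omission left 1 array in a group, so it cannot show that a count rested on the array left out. At 9 h the total was 2 without fasted replicate 2, 3 without fed 0 h replicate 1 and 4 without fasted replicate 1. At 12 h it was 4 without fed 0 h replicate 1 and 5 without fasted replicate 2. At 36 h it was 13 without fasted replicate 2, 21 without fasted replicate 1 and 18 without fed 0 h replicate 2. At 24 h it was 5 without either fed array, and at 48 h it was 5 without fed replicate 1 or fasted replicate 1.

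Without the replicate number as a block, no msp probe set was called between fasted and fed worms of the same age. At 48 h the class median was 479 and 323 units in fasted worms, against 169 and 250 in fed worms, and the fasted arrays lay above the fed ones. The median log2 difference was 0.65, with 0 of 31 called by limma, 16 at an unadjusted p under 0.05 and a smallest adjusted p of 0.0532. With the values as deposited 9 of 31 rose, where 22.3% of all probe sets did. With the block 15 of 31 rose at 48 h, where 20% of all probe sets did, and none fell, so the block changed this call. At 24 h the class median was 455 and 394 units in fasted worms, against 282 and 275 in fed worms, and the median difference of 0.41 came with no call, against 1 with the block, msp-78, where 20.5% of all probe sets rose. The mutant set, which was scaled separately, had lower msp medians in fasted worms in every pair but N2 replicate 1. The difference between the sets was not tested.

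At 36 h, against fed worms at 0 h, 10 of 31 msp probe sets fell and none rose, with a median of -0.54, where 20.5% of all probe sets fell and 19.8% rose. The class median was 193 and 201 units in fasted worms at 36 h, against 203 and 301 in fed worms at 0 h. msp-152 had 125 and 114 units at 36 h, against 161 and 231 at 0 h, a log2 difference of -0.95 ± 0.30 (SE; adjusted p 0.0203). msp-33 fell by 0.89 ± 0.26 on the log2 scale, with 86.7 and 81.9 units against 114 and 150, and msp-45 fell by 0.87 ± 0.32, with 138 and 123 units against 177 and 222. Fasted arrays lay under fed arrays for all 3 genes. With the values as deposited none of the 31 msp probe sets was called at 36 h, 3 were lower at an unadjusted p under 0.05, and the median was -0.36, with 30 of 31 differences below 0. The calls, though not the direction of the median, thus depended on the scaling between arrays. No fed worms were measured at 36 h, so age and fasting cannot be told apart in this comparison. In fed worms the median msp difference from 0 h was 0.05 at 24 h and -0.34 at 48 h. At 48 h 30 of 31 differences were below 0, and none was called at either time. The fasted worms of 48 h were compared above with these lower fed values. At 3, 6, 9, 12 and 18 h no msp probe set was called, with medians between -0.13 and 0.43, and none at an unadjusted p under 0.05, while the block called msp-78 higher at 18 h, where 21.1% of all probe sets rose.

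Among the remaining members, nspd-7 fell in fasting. It had 20.03 and 23.8 units at 36 h, against 52.5 and 52.1 in fed worms at 0 h, a difference of -0.97 ± 0.12 (SE; adjusted p 9.82e-06). It also fell at 9, 12 and 18 h, with differences of -0.74, -0.55 and -0.66, and at 48 h it had 34.9 and 30.5 units, against 51.5 and 41.7 in fed worms of the same age (-0.45 ± 0.12, adjusted p 0.00919). At 24 h the difference of -0.25 was not called. The values of nspd-7 at 36 h lay near the floor of the deposited values, 16, so the size of that difference depends on the offset. Of the other nspd probe sets, 4 more fell and 1 rose at 36 h, where 20.5% of all probe sets fell and 19.8% rose. With the values as deposited 1 fell and 1 rose in the whole class, where 14.8% of all probe sets fell and 24.4% rose.

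In the ssp class, ssp-31 had 48.8 and 52.4 units after 48 h of fasting, against 70.4 and 88.5 in fed worms, and 52.6 and 57.1 after 24 h, against 75.1 and 84.0 in fed worms. The groups did not overlap at either time and the differences were -0.71 ± 0.12 and -0.62 ± 0.12 (SE; adjusted p 0.00039 and 0.00108). ssp-31 also fell at 18 and 36 h, with differences of -0.49 and -0.78. ssp-10 rose at 48 h by 0.51 ± 0.18, with 265 and 289 units against 163 and 164, and ssp-16 at 24 h by 0.38 ± 0.12, with 47.4 and 51.9 units against 31.1 and 34.8.

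In the ssq class, 4 of 9 probe sets fell at 24 h, all of them for ssq-1 or ssq-2, where 15.7% of all probe sets fell. ssq-1 (187960_at), the ssq probe set with the highest mean, had 116 and 63.8 units in fasted worms, against 162 and 139 in fed worms, a log2 difference of -0.96 ± 0.24 (SE; adjusted p 0.00569). The groups did not overlap, though the fasted replicates lay far apart. A second ssq-1 probe set differed by -0.25, and those of ssq-2 by -0.47 and -0.42, all called. At 48 h ssq-2 fell by 0.34 ± 0.11 on 1 probe set, while ssq-1, at -0.60 ± 0.24, was not called (adjusted p 0.0718).

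Of the 35 other sperm genes 3 rose and 5 fell at 48 h, with a median of -0.02, where 16% of all probe sets rose and 14.1% fell, so that these shares were near or under those of the whole array. Those that fell were fog-1, which directs germ cells to the sperm fate, at -1.33 ± 0.19, the transcription factor gene spe-44 at -1.21 ± 0.19, spe-39 at -1.06 ± 0.30, zipt-7.1 at -0.99 and spe-5 at -0.58. spe-46 rose by 0.74 ± 0.15, elt-1 by 0.42 and spe-4 by 0.23. At 36 h 2 rose and 9 fell, among them msd-2, at -0.79 ± 0.20, where 19.8% of all probe sets rose and 20.5% fell. Oocyte and eggshell genes fell at the same times, 16 of 20 at 36 h, with a median of -0.98, and 9 of 20 at 48 h, with a median of -0.68, and none rose. Their summed intensity over the time course was 44758 to 108003 in fasted arrays of all times, against 84028 to 98230 in fed ones. It was 59088 and 54319 at 36 h and 68924 and 64834 at 48 h of fasting, under every fed array. The summed male list was 547 to 654 units in fasted arrays, against 543 to 624 in fed ones.

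Of the 13 larval moulting genes, 5 rose and 2 fell at each of 24, 36 and 48 h. At these times 16.5%, 19.8% and 16% of all probe sets rose, and 15.7%, 20.5% and 14.1% fell. The number of moulting genes that fell was thus near the share of all probe sets. At 48 h the largest rises were those of noah-1, at 1.44 ± 0.31 (SE), nas-37, at 1.20 ± 0.20, and nhr-25, at 0.99 ± 0.35, and bli-2, a cuticle collagen gene, and nhr-23 fell, at -1.38 ± 0.19 and -0.88 ± 0.24. Their summed intensity was 1326 to 3674 units in fasted arrays, with a median of 2333, against 1220 to 1689 in fed ones, with a median of 1359. Of the 10 early embryo genes measured, 4 rose and 1 fell at 36 h and likewise at 48 h, with sums of 2723 to 3783 in fasted arrays, against 2888 to 3773 in fed ones. Of the 8 somatic gonad genes none rose and 2 fell at 48 h, and their sums, 2094 to 3177 in fasted arrays against 3186 to 3744 in fed ones, did not overlap. The part of these cells and stages in the time course values of the members was not tested.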

How the data were processed

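Total RNA of whole worms was amplified and hybridised to Affymetrix arrays, and the authors deposited 1 intensity value per probe set and array, made with PLIER per the submitters' processing notes. The PLIER version, background step and normalization are not given in the sources used here. From the deposited intensities, 77 control probe sets were left out, an offset of 16 was added, log2 was taken and arrays were quantile normalized within the time course (22 arrays) and within the mutant set (24 arrays). limma 3.58.1 in R 4.3.3 fitted 1 coefficient per group with an intensity trend, two-sided, and p-values were adjusted by Benjamini-Hochberg over 22548 probe sets; adjusted p under 0.05 was called. Steps were tested on simulated data.

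The members and gene lists were chosen with earlier results of these data known. By rule the text names members from the 5 largest called rises and falls of a comparison, the 2 of smallest p where none was called, and those of highest and lowest mean in each class; called genes of other sperm genes are named up to 5 and of other marker lists up to 3 in each direction. Other members given for their course were chosen after their values were seen. Same-numbered arrays of the mutant set deviated together (correlations 0.157 to 0.739 in 30 comparisons, all 24 arrays closest to their own number), and the design text speaks of independent experiments, so blocked fits stand beside its results. Contrasts of replicate numbers were chosen after seeing the data. Alternatives were the values as deposited, offsets of 1 and 50, only probe sets brighter than the median, no trend, the block, each array left out and replicates 1 and 3 alone.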

Additional observations from a re-analysis of the deposited data

How the results depend on the processing

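Counts of called members moved by over 1.5 times under these settings. With the values as deposited they were 18 at 36 h, 24 at 48 h, 2 in fed worms at 48 h, 4 in fasted jun-1 against N2 worms and 35 for replicate 2 minus 3. With an offset of 50 they were 0 at 3 h, 0 at 6 h and 9 for replicate 2 minus 3, which fell to 1 without the trend and was 31 without daf-16 arrays. Among probe sets brighter than the median, where fewer members were tested, they were 10 at 18 h, 4 at 24 h, 0 and 3 in fed worms at 24 and 48 h, 0 for jun-1 and daf-16 fasting and 2 for fasted jun-1 against N2. With replicates 1 and 3 only, they were 0 for N2 fasting, daf-16 fasting and fasted jun-1 against N2, and with the block 0 for N2, 5 for jun-1 and 2 for fasted jun-1 against N2. Elsewhere the cause was not tested.

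With the replicate block, counts in the mutant set were 2, 23 and 2 for N2, jun-1 and daf-16 fasting, 3 and 1 for fed kgb-1 and jun-1 against N2, and 4 and 5 for fasted kgb-1 and jun-1 against N2; other mutant counts moved by less. In the blocked mutant fits 7.41% of all probe sets rose in N2 fasting and 4.91% in daf-16 fasting. In jun-1 fasting 2.97% rose and 4.22% fell. Against N2, 3.79% and 2.05% of all probe sets were lower in fed kgb-1 and jun-1 worms, and 2.79% and 5.54% in fasted ones. In the time course the numbers pair only 2 arrays a group. Same-numbered arrays correlated at 0.29 to 0.62 in their deviations. The block gave 2 called members at 6 h, 14 at 24 h and 31 at 48 h (15 of them msp, all higher). It gave 2 and 8 in fed worms at 24 and 48 h. With the block 20.5% of all probe sets rose at 24 h of fasting and 20% at 48 h. The shares that fell, and those at 6 h and in fed worms, are not given here.

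Leaving out 1 array gave 0 to 1 called members at 3 and 6 h, while the 9 h count was 2 to 9, the 12 h count 4 to 11, the 18 h count 13 to 16, the 24 h count 5 to 7, the 36 h count 13 to 24 and the 48 h count 5 to 13. Fed worms had 0 to 1 and 1 to 4 at 24 and 48 h. In the mutant set it gave 0 to 2 for N2, 0 for kgb-1, 1 to 2 for jun-1 and 0 to 1 for daf-16 fasting, 0 to 2 for fed jun-1 and 0 to 4 for fasted jun-1 against N2, and 0 for interactions and the other genotype comparisons. A lone array was then assumed to vary like the other groups. Of 832 alternative values of 74 named results, 707 kept direction and side of the threshold, 119 lost the call, 6 gained it and 0 reversed. Low signal limits the 22 members with a mean under 100, and others as well, since that mean includes the bright replicate 2 arrays. The probe set for nspd-5 and nspd-4 (172546_x_at) had a mean of 174 over all arrays but a median of 56.1 in the time course.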
